A study of Mus musculus with 18 samples.

Results

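The levels of 9 phospholipase A2 and platelet-activating factor (PAF) hydrolase genes were followed in RNA-Seq counts of the mouse ventral dentate gyrus: Pla2g3, Pla2g12a, Pla2g6, Pla2g15, Pla2g7, Pafah2, Pafah1b1, Pafah1b2 and Pafah1b3. They were taken by symbol from the 34620 genes listed in the count data, and all 9 were among the 17421 genes with enough reads to be tested. The 6 libraries came from the granule cell layer of the ventral dentate gyrus, microdissected from cryosections of adult Swiss Webster males at least 8 weeks old, with 2 libraries in each of 3 groups. WT males came from a separate lineage in which mothers and grandmothers were WT. F1 males were themselves WT but had mothers with a single intact copy of the serotonin 1A receptor gene (maternal genotype 5HT1A-/+). Per the methods they came from crosses of heterozygous mothers with heterozygous fathers, as WT littermates of heterozygous and knockout pups. F2 males were WT offspring of F1 females mated with WT males, with a WT mother and a heterozygous grandmother (grandmaternal genotype 5HT1A-/+). Their grandfather on the mother's side was thus heterozygous as well. All 3 groups were thus WT themselves, and no treatment is named for any of them. Per the methods, the animals came from at least 3 different litters. The comparisons ask whether RNA levels of these genes differed in males whose mother or grandmother lacked 1 copy of the receptor gene. They do not separate this from the genotype of the father or grandfather.

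Phospholipases A2 cut the fatty acid from the middle position of a membrane phospholipid, which releases polyunsaturated fatty acids such as arachidonic acid, the substrate of cyclooxygenases, and leaves a lysophospholipid. PAF is a signalling phospholipid with a short acetyl group at that position, and PAF acetylhydrolases remove the acetyl group and end its signal. In the brain one of these, the type I enzyme, is a complex of the catalytic subunits Pafah1b2 and Pafah1b3 with the non-catalytic protein Lis1, encoded by Pafah1b1, which also regulates the dynein motor and is required for neuronal migration.

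The catalytic genes fall into families whose coding sequences can be set side by side, which shows how far the reads of related genes can be told apart. Of the stretches below, 60 coding bases each and read 5′ to 3′ on the coding strand from GENCODE M1 transcripts on mm9, the first pair carries the codon of the catalytic serine of the type I subunits, and the second pair that of the intracellular enzyme Pafah2 and the secreted enzyme Pla2g7. Capitals mark bases that differ between the members of a pair.
Pafah1b2, chr9:45784137-45784196, minus strand, exon 3: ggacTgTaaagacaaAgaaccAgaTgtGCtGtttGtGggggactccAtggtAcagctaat
Pafah1b3, chr7:26082118-26082177, minus strand, exon 3: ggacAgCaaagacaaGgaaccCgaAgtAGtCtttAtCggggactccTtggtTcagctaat
Pafah2, chr4:133973977-133974036, plus strand, exon 8: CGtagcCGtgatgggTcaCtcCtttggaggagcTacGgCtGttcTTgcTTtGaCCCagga
Pla2g7, chr17:43741526-43741585, plus strand, exon 9: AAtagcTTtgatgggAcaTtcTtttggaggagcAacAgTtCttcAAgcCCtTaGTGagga
The Pafah1b2 and Pafah1b3 stretches shared 48 of 60 bases and the Pafah2 and Pla2g7 stretches shared 41 of 60. Each pair was picked as the best match among 60-base stretches within single exons in the same reading frame. These shares are therefore the highest found, not typical ones. Over whole aligned coding sequences, identity was 65.6% for Pafah1b2 and Pafah1b3, and 57.7% for Pafah2 and Pla2g7, beside 56.9% for the unrelated pair Pafah1b1 and Pafah1b2. The longest identical coding stretch was 11 bases in both related pairs, against a read length of 50 bases. None of the 9 genes shared a run of 50 transcript bases with another protein-coding gene.

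The genes lie apart on 8 chromosomes of mm9. Pla2g3 is on chromosome 11 (3388230 to 3399353, plus strand), Pla2g12a on chromosome 3 (129581524 to 129598739, plus), Pla2g6 on chromosome 15 (79116658 to 79158820, minus) and Pla2g15 on chromosome 8 (108674299 to 108688613, plus). Pla2g7 is on chromosome 17 (43705047 to 43749150, plus), where 319 of its exon bases overlap the antisense transcript 1700071M16Rik. The use of strand in counting is not stated, so it is not known whether reads there were counted for Pla2g7, for that transcript or for neither. Pafah2 is on chromosome 4 (133952235 to 133983328, plus), Pafah1b1 on chromosome 11 (74487451 to 74538172, minus), Pafah1b2 on chromosome 9 (45773394 to 45792954, minus) and Pafah1b3 on chromosome 7 (26080068 to 26083005, minus). No exon of these other 8 genes overlaps an annotated exon of another gene.

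Reads counted on genes numbered between 26358165 and 33727936 per library. Values are given as CPM, read counts scaled to library size with TMM factors, and the mean ± SD covers both libraries of a group. Groups were compared by edgeR's exact test, and q is the p-value after Benjamini-Hochberg adjustment over all 17421 tested genes, with a gene called at q under 0.01. Intervals of 95% are 1.96 standard errors (SE) to either side. The spread between libraries of a group corresponded to a coefficient of variation of 10.6% (common dispersion 0.0113). Both comparisons with WT rest on the same 2 WT libraries, and since the number of animals in each library is not given, the p-values measure only the spread between these libraries. The receptor gene itself, Htr1a, ranged from 49.3 to 68.6 CPM and was not called in F1 (log2 fold change -0.18, q = 0.332) or F2 (0.20, q = 0.266).

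In WT the 9 genes spanned a wide range of RNA levels, from Pafah1b1 with 384 and 401 CPM to Pla2g3 with 8.18 and 8.62 CPM. To compare genes with each other, CPM were divided by exon length in kilobases. On that scale the means over 6 libraries were 49.4 CPM per kb for Pafah1b1, 47.3 for Pafah1b2 and 42.2 for Pla2g7, and the ranges of these 3 genes overlapped. Pla2g12a followed at 13.5, Pla2g15 at 9.04, Pla2g6 at 5.11, Pafah1b3 at 4.24, Pafah2 at 2.8 and Pla2g3 at 1.17. Neighbours from Pla2g12a to Pla2g6 did not overlap in their ranges over the 6 libraries, whereas Pla2g6 overlapped Pafah1b3 and Pafah1b3 overlapped Pafah2. The lowest place of Pla2g3 and the high place of the 3 abundant genes did not depend on the length used, but other places did. With the length of the longest protein-coding transcript, Pafah1b3 moved up to 9.92, above Pla2g15 at 9.04 and Pla2g6 at 7.56. Pla2g7, at 58.5, then came above Pafah1b2 at 47.3. Pafah1b1, at 66.3 to 95.1 over the 6 libraries, no longer overlapped Pafah1b2, at 40.6 to 52.6. The type I complex was thus represented by much more RNA of Pafah1b2 than of Pafah1b3 with either length.

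**Figure D1:**
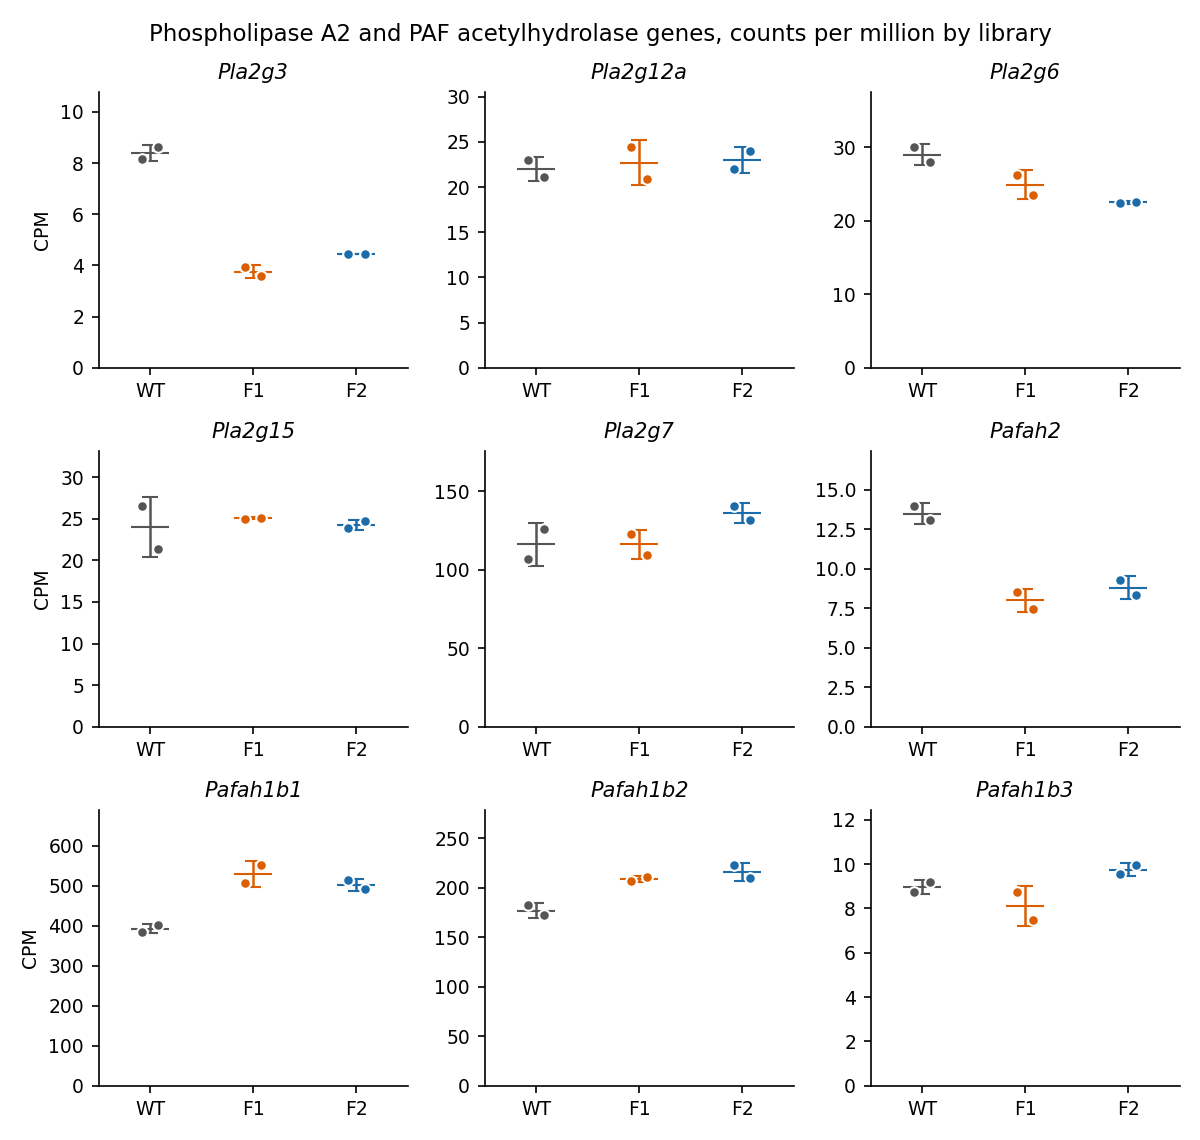
CPM (vertical axes, each from 0) of the 9 genes in the 2 libraries of WT, F1 and F2; points are libraries, the horizontal line is the group mean and the bar its SD. Pla2g3 and Pafah2 lie lower in all 4 F1 and F2 libraries than in both WT libraries (3.59 to 4.45 against 8.18 and 8.62 CPM for Pla2g3), and Pafah1b1 lies higher (492 to 552 against 384 and 401 CPM).

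Of the secreted enzymes, Pla2g3 was reduced in both generations and Pla2g12a was not called in either. Pla2g3, the group III secreted phospholipase A2, had 8.18 and 8.62 CPM in WT, 3.93 and 3.59 in F1, and 4.45 and 4.45 in F2. All 4 F1 and F2 libraries lay below both WT libraries, with 111 to 120 reads against 245 and 278. Pla2g3 fell by 55.2% in F1 (log2 fold change -1.16 ± 0.21 SE, n = 2 libraries per group, q = 1.18e-06 by edgeR's exact test) and by 47.0% in F2 (-0.91 ± 0.21, q = 0.000221). The fall in F1 was past the threshold in all 18 alternative analyses, with q at most 0.0031. The call in F2 was lost without F2 replicate 1 (q = 0.0283), without F2 replicate 2 (0.0236) and without WT replicate 2 (0.0115). Pla2g12a, the small group XIIA enzyme, had 23.0 and 21.1 CPM in WT, 24.4 and 20.9 in F1, and 22.0 and 24.0 in F2, and its groups overlapped. Its log2 fold change was 0.04 in F1 (95% interval -0.26 to 0.34) and 0.06 in F2 (-0.24 to 0.36).

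Neither intracellular phospholipase A2 was called. Pla2g6, the calcium-independent enzyme whose loss causes infantile neuroaxonal dystrophy in humans, had 30.03 and 27.95 CPM in WT, 26.2 and 23.5 in F1, and 22.4 and 22.6 in F2. Every F1 and F2 library lay below both WT libraries, but the differences were small. The log2 fold change was -0.22 ± 0.14 SE in F1 (q = 0.274, edgeR's exact test) and -0.37 ± 0.14 in F2 (q = 0.0491), which would be called only at a threshold of 0.05. Pla2g15, the lysosomal phospholipase A2, had 26.5 and 21.4 CPM in WT, 24.99 and 25.16 in F1, and 23.9 and 24.7 in F2. The F1 and F2 values all lay between the 2 WT libraries. Its log2 fold change was 0.06 in F1 (95% interval -0.23 to 0.36) and 0.02 in F2 (-0.28 to 0.32).

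The single-chain PAF acetylhydrolases were unlike each other in what passed the test, as Pafah2 was reduced and Pla2g7 was not called. Pafah2, the intracellular type II enzyme, had 14.0 and 13.1 CPM in WT, 8.52 and 7.48 in F1, and 9.31 and 8.32 in F2. The 4 F1 and F2 libraries lay below both WT libraries without overlap. Pafah2 fell by 40.8% in F1 (log2 fold change -0.76 ± 0.18 SE, q = 0.000595, edgeR's exact test) and by 34.8% in F2 (-0.62 ± 0.18, q = 0.00732). The calls depended on single libraries. The F1 call was lost without F1 replicate 2 (q = 0.0272) or WT replicate 1 (0.0314), and the F2 call without either F2 library (0.0665 and 0.162) or either WT library (0.117 and 0.0393). DESeq2 gave q = 0.00181 in F1 and 0.0146 in F2, and the quasi-likelihood test 0.00779 and 0.0206. Pla2g7, the secreted enzyme also known as lipoprotein-associated phospholipase A2, was the most abundant phospholipase A2 gene of the 9 in reads per length, with 107 and 126 CPM in WT, 122 and 109 in F1, and 140 and 131 in F2. F1 overlapped WT, and both F2 libraries lay above both WT libraries. The latter held for at least 21.0% of all tested genes, those with all F1 and F2 libraries above WT. Its log2 fold change was -0.00 in F1 (95% interval -0.25 to 0.25) and 0.23 in F2 (-0.02 to 0.47, q = 0.209).

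In the type I complex, Pafah1b1 was raised in F1, and the catalytic subunits were not called. Pafah1b1 had 384 and 401 CPM in WT, 507 and 552 in F1, and 514 and 492 in F2, and all F1 and F2 libraries lay above both WT libraries. It was 34.8% higher in F1 (log2 fold change 0.43 ± 0.11 SE, q = 0.0021, edgeR's exact test). In F2 the difference of 0.36 ± 0.11 did not pass 0.01 (q = 0.0137), and DESeq2 placed it past the threshold (q = 0.00501). In F1 the quasi-likelihood test gave q = 0.0147, and the call was lost without F1 replicate 2 (0.0485), WT replicate 1 (0.0575) or WT replicate 2 (0.0177). Pafah1b2 had 183 and 172 CPM in WT, 207 and 210 in F1, and 223 and 210 in F2, again with every F1 and F2 library above both WT libraries. Its log2 fold changes of 0.23 ± 0.11 in F1 (q = 0.131) and 0.29 ± 0.11 in F2 (q = 0.0547) did not pass the threshold. Pafah1b3 had 8.74 and 9.19 CPM in WT, 8.75 and 7.48 in F1, and 9.53 and 9.95 in F2. F1 overlapped WT and F2 lay just above it, with log2 fold changes of -0.14 in F1 (95% interval -0.51 to 0.23) and 0.12 in F2 (-0.25 to 0.49). Both F2 libraries lay above both WT libraries for at least 21.0% of all tested genes.

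**Figure D2:**
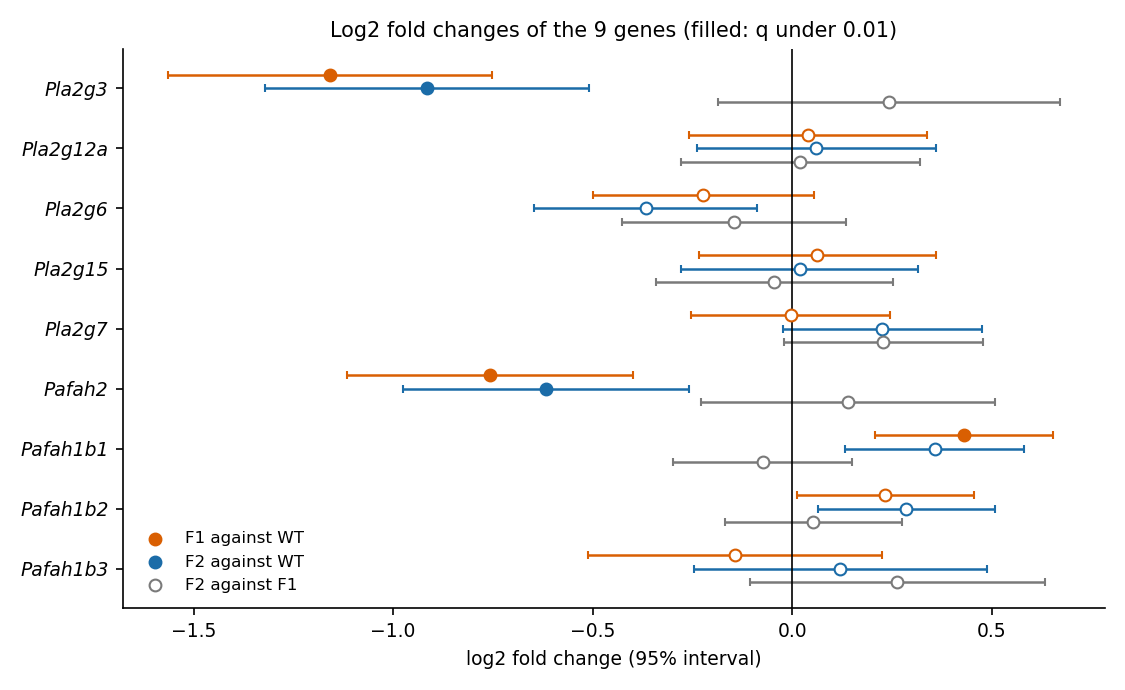
Log2 fold changes (horizontal axis) of the 9 genes for F1 against WT, F2 against WT and F2 against F1, with 95% intervals from the standard error; filled points have q under 0.01. Pla2g3 and Pafah2 are filled and negative in both comparisons with WT, Pafah1b1 is filled only for F1 at 0.43, and no point is filled for F2 against F1.

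Called in F1 were 3 of the 9 genes, 1 higher and 2 lower, where 12.3% of all tested genes were called, 3.77% higher and 8.54% lower. In F2, 0 were called higher and 2 lower, where 3.86% of all genes were called higher and 8.1% lower. Pla2g3 and Pafah2 were called lower in both generations, beside 6.07% of all genes. With 9 genes these shares are coarse, and the 9 were chosen with earlier results of these data known. The paper already lists Pla2g3, Pafah2 and Pafah1b1 among genes changed in both F1 and F2, whereas Pafah1b1 was not called in F2 here. Of the related lists described below, it also names Pla2g4b, Pnpla6, Pnpla8, Lpcat4, Enpp6, Abhd4, Lpgat1 and Ptgs1 as changed in both. Among these, Pnpla6 was not called in F1 here, and Pnpla8 and Lpcat4 were called in neither generation. The counts of called genes therefore cannot be read as enrichment. The median log2 fold change of the 9 was -0.00 in F1 and 0.06 in F2, beside 0.01 and -0.00 over all tested genes. By the quasi-likelihood test 2 of the 9 genes were called in F1 and 1 in F2, where 5.91% and 5.72% of all genes were. DESeq2 called 3 and 2 of them, beside 9.39% and 9.38% of all genes, and the exact test at q under 0.05 called 3 and 4, beside 20.8% and 20.7%. All F1 and F2 libraries lay on one side of both WT libraries for 5 of the 9 genes, Pla2g3, Pafah2 and Pla2g6 below and Pafah1b1 and Pafah1b2 above. This was also so for 44.7% of all tested genes, 23.7% below and 21.0% above. Reads on the 9 genes together made up 0.0791% and 0.0808% of all counted reads in WT, 0.092% and 0.0958% in F1, and 0.0983% and 0.091% in F2. Pafah1b1 had more of these reads than any other of the 9 genes in every library.

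The direct comparison of F2 with F1 shares no WT library and called 0 of the 9 genes, beside 0.74% of all genes. None had an unadjusted p under 0.05 by edgeR's exact test, its quasi-likelihood test or DESeq2. The lowest p was that of Pla2g7, which had a log2 fold change of 0.23 (95% interval -0.02 to 0.48, p = 0.073, q = 0.648 by edgeR's exact test). For Pla2g3 the difference between F2 and F1 was 0.24 (95% interval -0.19 to 0.67), for Pafah2 0.14 (-0.23 to 0.51) and for Pafah1b1 -0.07 (-0.30 to 0.15). Pafah1b1 was called in F1 and not in F2, and this direct difference was not called.

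Other RNAs moved with the groups in the same libraries. The summed level of 14 transcripts that are kept in the nucleus or carry detained introns, such as Malat1, Meg3 and Clk1, was 10511 to 10971 CPM in WT, 5064 to 5960 in F1 and 5177 to 5490 in F2. Of these 14, 11 were called lower in F1 and 12 in F2, and none higher. Over all tested genes, 8.54% were called lower in F1 and 8.1% in F2. Uniquely aligned reads not wholly inside annotated exons made up 17.74% and 20.67% in WT, 13.78% and 12.25% in F1, and 13.92% and 17.43% in F2. They were lower in all F1 and F2 libraries than in WT, although F2 replicate 2 lay close to WT replicate 1. Pla2g3 and Pafah2 were high in the WT libraries, where these measures were also high. The part of nuclear RNA in the lower counts of Pla2g3 and Pafah2 was not tested.

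**Figure D3:**
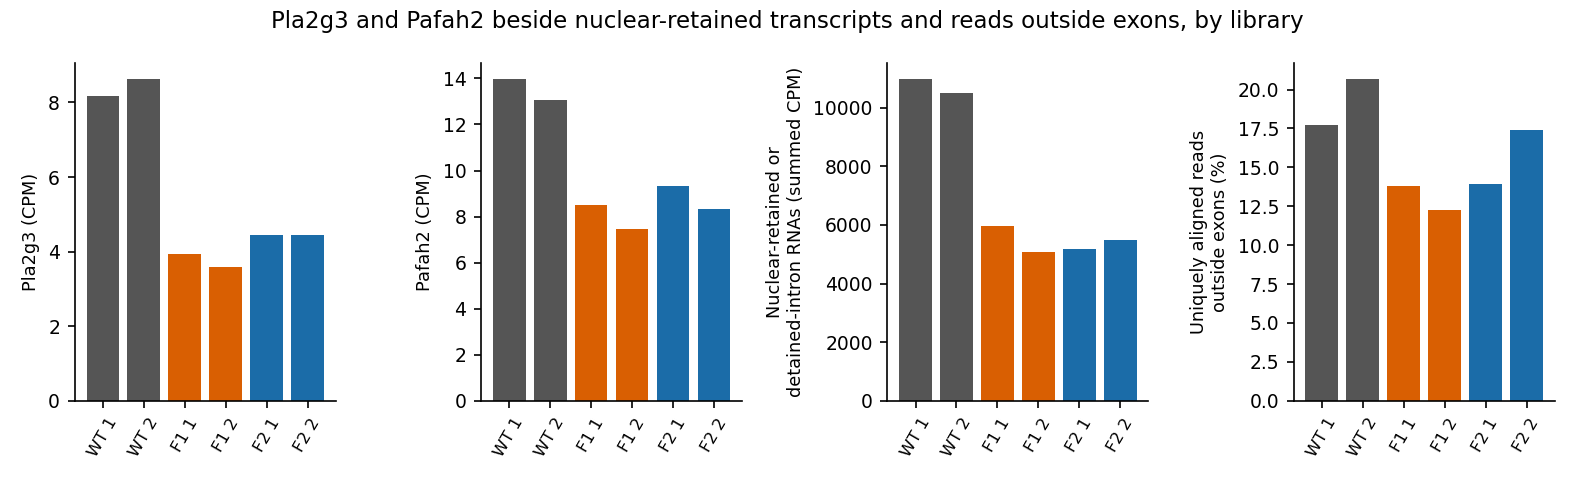
Bars, from 0, show for each library the CPM of Pla2g3 and of Pafah2, the summed CPM of 14 nuclear-retained or detained-intron transcripts, and the percentage of uniquely aligned reads not wholly inside annotated exons (labelled outside exons). The WT libraries are highest in all 4 panels, at 10511 and 10971 summed CPM and at 17.74% and 20.67% of reads.

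Markers of other cells moved as well. Granule cell markers, 8 genes headed by Prox1 and C1ql2, were present in every library and none was called, with a summed level of 1069 to 1130 CPM in WT, 947 to 1163 in F1 and 1254 to 1366 in F2. For the counts of called markers that follow, 3.77% of all tested genes were called higher in F1 and 3.86% in F2. Oligodendrocyte markers summed to 1147 and 2075 CPM in WT, 2344 to 3125 in F1 and 1617 to 3035 in F2, so that F2 overlapped WT. Of these 10 markers, 4 were called higher in F1 and 2 in F2. Astrocyte markers summed to 2119 to 2382 CPM in WT, 2583 to 3214 in F1 and 2986 to 3587 in F2, with 1 and 5 of 9 called. Microglial markers summed to 128 to 130 CPM in WT, 154 to 177 in F1 and 171 to 197 in F2, with 0 and 5 of 8 called. Endothelial markers (7 genes) reached 107 to 117, 121 to 140 and 140 to 147 CPM in WT, F1 and F2, with 1 called higher in each. The 8 markers of CA and mossy cells summed to 417 to 457 CPM in WT, 350 to 435 in F1 and 396 to 403 in F2, so that F2 lay below WT and F1 overlapped it. The 6 of choroid plexus summed to 18.6 to 18.9, 17.4 to 19.6 and 22.0 to 22.5 CPM, with F2 above WT and F1 overlapping it. The 7 of interneurons summed to 839 to 888, 813 to 1103 and 867 to 982 CPM, and both F1 and F2 overlapped WT. At most 1 gene of each of these 3 lists was called in either comparison. No marker of any list was at 0 in all libraries. In a dissected layer, fewer cells of a type and less RNA per cell cannot be told apart, and the part of these cells in the values of Pafah1b1, Pla2g3 and Pafah2 was not tested.

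The genes whose levels ran most nearly parallel to those of Pla2g3 and Pafah2 were found by the Pearson correlation of log2 CPM over the 6 libraries, over genes that averaged 10 CPM or more. For Pla2g3 these were 4930485B16Rik (r = 0.9993), BC031353 (0.9968) and Ece2 (0.9961), and 801 of 10074 genes had r over 0.9. For Pafah2 they were Pomt1 (0.9982), Hps1 (0.9969) and Heatr8 (0.9964), and 851 of 10073 genes had r over 0.9. The 6 points fall into a WT group and the rest, and a gene that is lower in F1 and F2 by a steady ratio gives a high r.

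Among other phospholipase A2 and related genes, 3 cytosolic or secreted enzymes fell in F1, and none of the list was called higher against WT. Of 24 genes listed, 16 were expressed enough to be tested, 3 of them were called lower in F1 and 3 in F2, beside 8.54% and 8.1% of all tested genes called lower. With 16 genes these shares are as coarse as those of the 9. The log2 fold change was positive for 6 of the 16 genes in F1 and 7 in F2. Pla2g16 and Pnpla8 would be called higher in both generations at a threshold of 0.05. Pla2g16 had 19.3 and 21.0 CPM in WT and 25.3 to 27.4 in the F1 and F2 libraries (log2 fold change 0.43 in F1, q = 0.0161; 0.38 in F2, q = 0.0407, edgeR's exact test). Pnpla8 had 75.3 and 80.0 CPM in WT and 92.1 to 109 in the F1 and F2 libraries (0.39, q = 0.0183; 0.36, q = 0.0328). Pla2g4b, a cytosolic phospholipase A2, went from 24.8 and 16.4 CPM in WT to 6.8 to 8.09 in the F1 and F2 libraries (log2 fold change -1.47 ± 0.22 SE in F1, q = 2.29e-09; -1.43 ± 0.22 in F2, q = 9.58e-09, edgeR's exact test). Pla2g4e, a cytosolic enzyme that acts as an N-acyltransferase making endocannabinoid precursors, went from 43.9 ± 1.24 CPM in WT to 26.6 ± 1.4 in F1 (-0.72, q = 9.03e-06) and 30.6 ± 4.21 in F2 (-0.52, q = 0.00251). Part of its exons, 153 bases, overlaps Gm13997, and its F2 call was lost without F2 replicate 2 (q = 0.158) and without either WT library (0.0617 and 0.0244). Pnpla6, neuropathy target esterase, was called lower in F2 (-0.51, q = 0.00224) and not in F1 (-0.37, q = 0.0338), without a called difference between F2 and F1 (q = 0.935), and the F2 call was lost without WT replicate 1 (0.137), F2 replicate 1 (0.136) or F2 replicate 2 (0.0199). Pla2g2d, a secreted enzyme of low abundance (0.429 to 1.8 CPM), was called lower in F1 (-1.37, q = 0.00634) but not F2 (-0.02). Its call was lost without any of the libraries other than WT replicate 1, with q up to 0.209 without WT replicate 2, and the difference between F2 and F1 had q = 0.0806. Pla2g4a, the arachidonate-specific cytosolic enzyme, had 1.32 to 3.14 CPM and log2 fold changes of 0.23 in both generations (q = 0.759 and 0.752).

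Of the 25 genes for the PAF receptor, for the making of PAF and ether lipids and for handling lysophospholipids, 3 were called higher and 1 lower in each generation, where 3.77% of all genes were called higher in F1 and 3.86% in F2, and 8.54% and 8.1% lower. The receptor gene Ptafr was barely expressed, at 0.854 to 1.29 CPM, and was not called (q = 0.758 in F1 and 0.353 in F2). Enpp6, a choline-specific glycerophosphodiesterase made by newly formed oligodendrocytes, rose from 0.702 ± 0.202 CPM in WT to 2.32 ± 0.54 in F1 (log2 fold change 1.74, q = 1.82e-05) and 2.01 ± 0.253 in F2 (1.53, q = 0.00041). The summed oligodendrocyte markers lay above both WT libraries (1147 and 2075 CPM) in F1, at 2344 to 3125 CPM. In F2, at 1617 to 3035 CPM, they overlapped WT. Their part in the values of Enpp6 was not tested. Abhd4, a lipase on the path to N-acylethanolamines, rose from 32.6 ± 2.2 to 45.9 ± 0.557 CPM in F1 (0.50, q = 0.000995) and 47.0 ± 0.108 in F2 (0.53, q = 0.000402). Lpgat1, an acyltransferase for lysophospholipids, rose from 122 ± 4.65 to 175 ± 0.746 CPM in F1 (0.53, q = 6.04e-05) and 163 ± 0.0558 in F2 (0.42, q = 0.00215). Gdpd3, which splits lysophospholipids to lysophosphatidic acid, fell from 1.83 ± 0.0505 to 0.686 ± 0.129 CPM in F1 (-1.41, q = 0.000589) and 0.783 ± 0.162 in F2 (-1.22, q = 0.00474), on 18 to 61 reads per library, with 190 exon bases shared with Gm9967. All 4 genes lost their calls in both generations without WT replicate 1, with q of 0.0116 to 0.0511 in F1 and 0.0351 to 0.0663 in F2. In F2 the calls of Gdpd3 and Lpgat1 were also lost without WT replicate 2 or either F2 library (q of 0.0125 to 0.15), that of Abhd4 without F2 replicate 1 (0.0211) or F2 replicate 2 (0.0181) and that of Enpp6 without F2 replicate 2 (0.027). In F1 the call of Gdpd3 was also lost without WT replicate 2 (0.0197) or F1 replicate 1 (0.0204), and that of Abhd4 without F1 replicate 2 (0.0141). DESeq2 did not call Gdpd3 (q = 0.0408 in F1 and 0.0847 in F2).

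Of the enzymes that turn arachidonic acid into prostaglandins and leukotrienes, 21 of 22 were tested, 3 were called higher in F1 and 2 in F2, and none lower. Over all tested genes 3.77% and 3.86% were called higher and 8.54% and 8.1% lower. With 21 genes these shares are coarse, and the absence of lower calls says little. The log2 fold change was positive for 16 genes and negative for 5 in F1, and positive for 15 and negative for 6 in F2. This lean was not particular to these enzymes. It was positive for 18 of the 25 PAF and lysophospholipid genes in F1 and 14 in F2, and for 12 and 13 of the 17 Lis1 partners. Among the other phospholipase A2 genes it was positive for 6 and 7 of 16. The median over all tested genes was 0.01 in F1 and -0.00 in F2. Ptgs1, the constitutive cyclooxygenase, rose from 3.42 ± 0.434 CPM in WT to 8.38 ± 0.603 in F1 (log2 fold change 1.29, q = 6.32e-07, edgeR's exact test) and 7.03 ± 1.22 in F2 (1.04, q = 0.000161). Microglia are among the cells of the brain that express Ptgs1, and the 8 microglial markers, at 128 to 130 CPM in WT, 154 to 177 in F1 and 171 to 197 in F2, were higher in the same libraries. None of these markers was called in F1 and 5 were in F2, and their part in the values of Ptgs1 was not tested. Ptges2, a prostaglandin E synthase, rose from 18.9 ± 1.75 to 28.8 ± 2.38 in F1 (0.60, q = 0.00092) and 27.2 ± 2.19 in F2 (0.53, q = 0.00526). Ptgs2, the inducible cyclooxygenase and an activity-dependent gene of neurons, had 17.9 and 21.9 CPM in WT, 32.9 and 28.9 in F1, and 17.7 and 22.5 in F2. It was called higher in F1 (0.64, q = 0.0021) and not in F2 (0.02, q = 0.977), and the difference between F2 and F1 was -0.62 ± 0.17 (q = 0.026), short of the threshold. Without WT replicate 1 the calls of Ptgs1 in F2 (q = 0.0319) and Ptgs2 in F1 (0.101) were lost, and that of Ptgs1 in F2 also without F2 replicate 1 (0.0413). Ptgs2 in F1 also fell short without F1 replicate 1 (0.0323). Ptges2 lost its F1 call without WT replicate 2 (0.0472) or F1 replicate 2 (0.0286), and its F2 call without any 1 of the WT and F2 libraries (0.0188 to 0.157).

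The partners of Lis1 in the dynein and reelin pathways, 17 genes all tested, gave 1 call in each direction in each generation. In F1 this was 2 of 17 genes, near the 12.3% of all tested genes that were called, and in F2 3.86% of all genes were called higher and 8.1% lower. Dync1i2, an intermediate chain of dynein, fell from 251 ± 3.1 CPM in WT to 170 ± 6 in F1 (log2 fold change -0.57, q = 1.31e-05, edgeR's exact test) and 172 ± 2.43 in F2 (-0.55, q = 3.16e-05), a call in F2 that was lost without F2 replicate 1 (0.013). Dync1i1, the other intermediate chain, rose from 120 ± 3.7 to 158 ± 0.964 CPM in F1 (0.40, q = 0.00447) and had 141 ± 4.88 in F2 (0.24, q = 0.116). These dynein chains thus moved in opposite directions in F1, and the difference of Dync1i1 between F2 and F1 was not called (-0.16, q = 0.829). Reln, the secreted reelin, had 36.5 ± 1.2 CPM in WT and 51.2 ± 7.9 in F2 (0.49, q = 0.00875) and 39.9 ± 5.84 in F1 (0.13, q = 0.59), with a difference of 0.36 between F2 and F1 (q = 0.35). The Reln call was lost without either WT library (0.112 and 0.0435) or F2 replicate 1 (0.297), and 246 of its exon bases are shared with Gm10475. The Dync1i1 call was lost whichever library was left out, with q of 0.0103 to 0.0651. The dynein adaptors Ndel1 and Nde1 and the heavy chain Dync1h1 were not called.

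**Figure D4:**
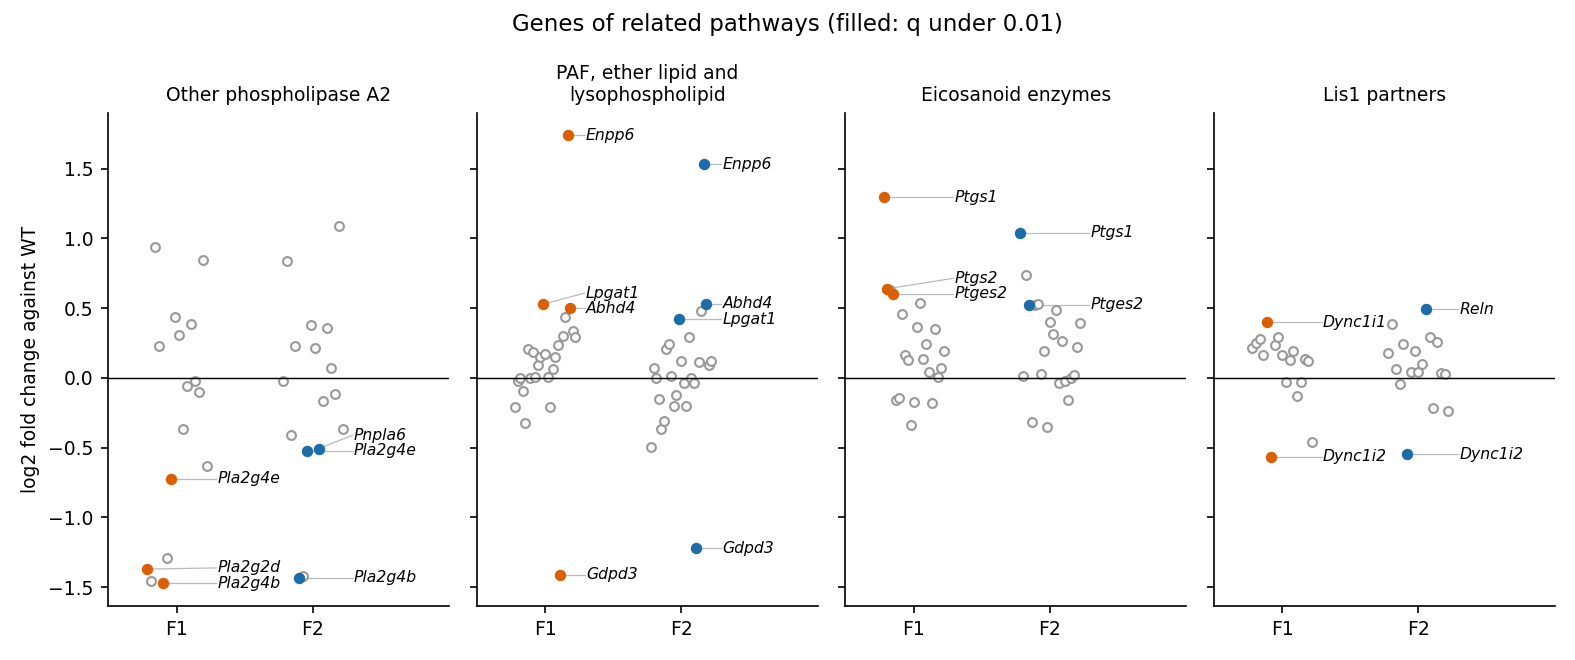
Log2 fold changes against WT (vertical axis) of the tested genes of 4 lists in F1 and F2; filled, named points have q under 0.01 and open points do not. Eicosanoid enzymes that pass lie above 0, the phospholipase A2 genes that pass lie below, and Enpp6 is the highest at 1.74 in F1.

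The 3 called genes of the 9 kept their direction in every alternative analysis run. Pla2g3 was past the threshold in 18 of 18 alternatives in F1, Pafah2 in 15 of 18 and Pafah1b1 in 13 of 18. In F2 the counts were 14 of 18 for Pla2g3, 9 of 18 for Pafah2 and 6 of 18 for Pafah1b1, which is not called at the threshold used here. The 2 genes that DESeq2 called in F2 were Pla2g3 and Pafah1b1.

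**Figure D5:**
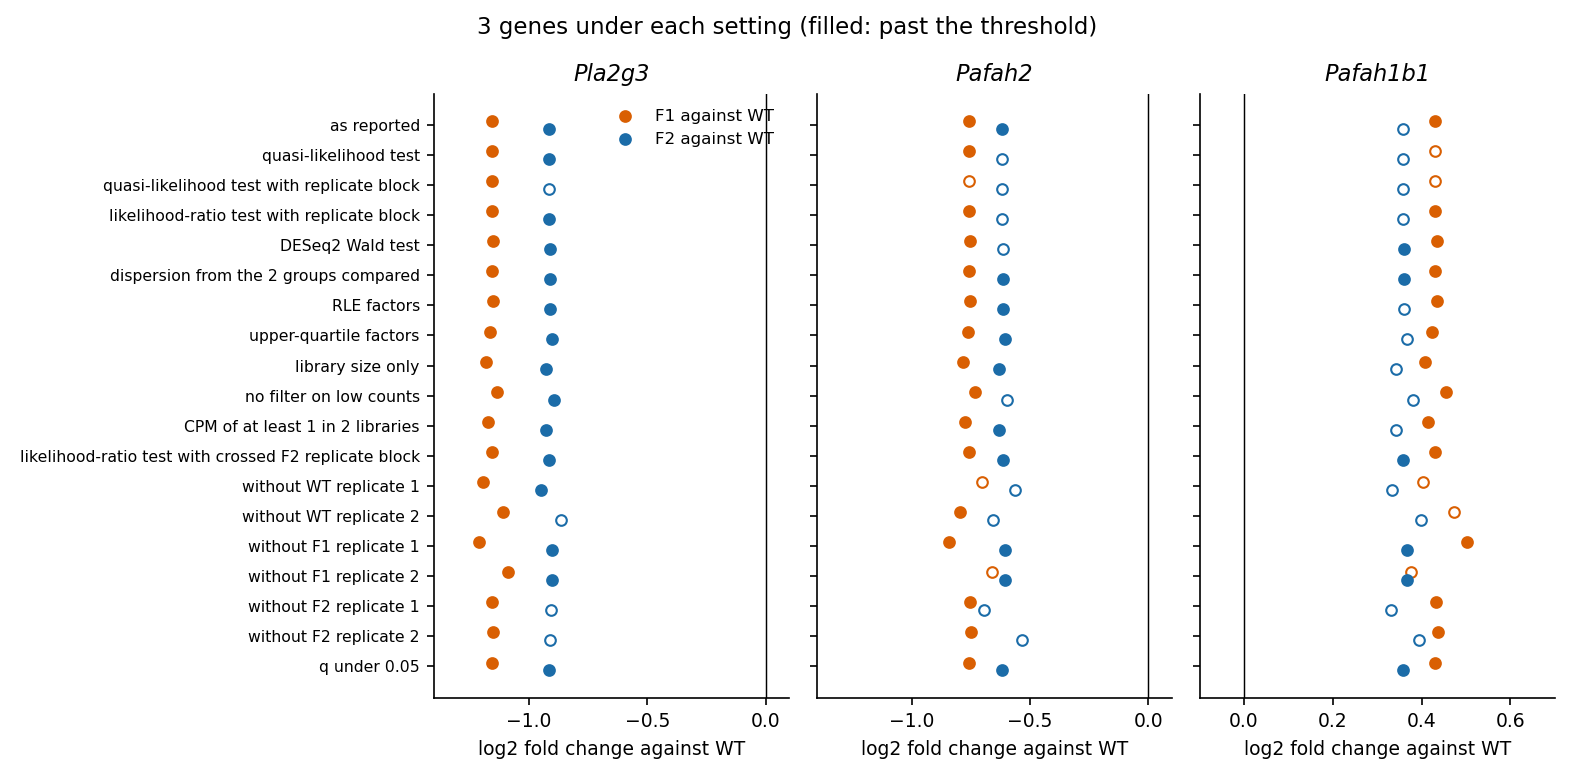
Log2 fold changes against WT (horizontal axes) of Pla2g3, Pafah2 and Pafah1b1 in F1 and F2, as reported and under each alternative (vertical axis); filled points are past the threshold of that setting. All points of Pla2g3 and Pafah2 are below 0 and all of Pafah1b1 above 0, and Pla2g3 in F1 is filled throughout, between -1.21 and -1.09.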

How the data were processed

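RNA-Seq of the ventral dentate granule cell layer was analysed in 6 libraries, which the labels assign to WT, F1 and F2. The authors prepared polyA-selected libraries, sequenced single-end reads of 50 bp, aligned them to mm9 with TopHat (TopHat2 2.0.2 in the submitters' processing notes) and deposited unnormalized counts per gene symbol from HTSeq (intersection-strict), which drops reads that reach outside exons. The 12 bisulfite samples were not used here. Reads on genes numbered 26358165 to 33727936 per library, and precision is limited by the 2 libraries per group and, for genes of low abundance such as Gdpd3 with 18 to 61 reads, also by counting.

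The 9 genes and all gene lists were chosen with earlier results of these data known. Named genes of other lists are those with q under 0.01 in F1 or F2. The counts passed filterByExpr and TMM scaling, and edgeR 4.0.16 (R 4.3.3) gave the exact test, its common and tagwise dispersions being estimated from all 6 libraries. The study's results use q under 0.01, taken here, and its methods 0.05. SEs come by the delta method from mean counts and dispersion. Replicates were not duplicates, as their chi-square per degree of freedom was 18.5 to 23. Alternatives were quasi-likelihood and likelihood-ratio tests of edgeR, DESeq2 1.42.0, other scalings, filters and dispersions, a replicate block, the 0.05 threshold and leaving out each library. A crossed block and levels per longest coding transcript were chosen after seeing the data. Positions and sequences come from GENCODE M1 on mm9, where 32955 of 34620 symbols had 1 gene. The procedure was tested on simulated data. Python 3.11.15 with pandas 2.3.3 and matplotlib 3.10.9 made the tables and figures.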

Additional observations from a re-analysis of the deposited data

Results flagged for a closer look

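Pla2g2f, a secreted phospholipase A2 gene next to Pla2g2d on chromosome 4, differed between the generations (F2 against F1 log2 fold change 2.29 ± 0.53 SE, q = 0.00479 by edgeR's exact test, n = 2 libraries per group). It was singled out by this difference after its values were seen. Its levels were 2.35 and 1.23 CPM in WT, 0.693 and 0.615 in F1, and 1.35 and 5.09 in F2, and the value of F2 replicate 2, on 137 reads, stood apart from all others. Neither F1 (q = 0.0401) nor F2 (q = 0.252) was called against WT. None of the 9 genes met a criterion for a closer look.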

How the results depend on the processing

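The 9 genes gave 486 fold changes under alternatives, of which 444 kept their direction and side of the threshold, 21 fell below it, 7 passed it and 14 changed sign. The 486 include the reported fold changes judged again at q under 0.05. No alternative scaling shifted the median of all genes by over 0.1. The number of the 9 genes called in F1, 3 as reported, was 1 by the quasi-likelihood test with a replicate block and 1 to 3 with a library left out, with 1 without WT replicate 1 or F1 replicate 2. The number in F2, 2 as reported, was 1 by the quasi-likelihood test, by the blocked likelihood-ratio test and with no filter on low counts, 0 by the quasi-likelihood test with the block, 4 at q under 0.05, and 0 to 3 with a library left out. The number called in both, 2 as reported, was 1 in the same 3 settings, 0 by the quasi-likelihood test with the block and 0 to 3 with a library left out, with 0 without WT replicate 2 or either F2 library.

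Same-numbered libraries did not deviate together, so the numbers give no pairing. Correlations of the replicate 1 minus replicate 2 deviations were -0.0269 (WT and F1), -0.083 (WT and F2) and -0.182 (F1 and F2). With the F2 numbers crossed in the block, the likelihood-ratio test called 3 of the 9 genes in F1 and 3 in F2, and 7 of the other phospholipase A2 genes.

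Counts of genes called in F1 or F2 in the other lists depended on the setting. For the other phospholipase A2 genes, 4 as reported, the count was 2 by the quasi-likelihood test with or without the replicate block, 7 at q under 0.05 and 3 to 4 with a library left out. For the PAF and lysophospholipid genes, 4 as reported, it was 2 with that block, 7 at q under 0.05 and 0 to 4 with a library left out, 0 being without WT replicate 1. For the eicosanoid enzymes, 3 as reported, it was 1 with that block, 5 at q under 0.05 and 2 to 4 with a library left out. For the Lis1 partners, 3 as reported, it was 1 by the quasi-likelihood test with or without the block and by the blocked likelihood-ratio test, and 1 to 2 with a library left out, 1 being without either WT library or F2 replicate 1. For the nuclear transcripts, 13 as reported, it was 8 with the quasi-likelihood block and 9 to 12 with a library left out.

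Log2 fold changes that turned sign were at most 0.132 in size as reported, and the cause was not tested. Pla2g7 in F1 was 0.0017 by DESeq2 and with RLE factors, 0.021 with no filter, 0.0005 with the crossed block, and -0.1154 to 0.1301 with a library left out. With a library left out, the lowest and highest values of Pla2g12a were -0.064 and 0.1553 in F1, and -0.0848 and 0.1345 for F2 against F1. Those of Pla2g15 were -0.0712 and 0.2305 in F1, then -0.1169 and 0.1889 in F2. Pla2g2d in F2 was 0.0061 and 0.0047 with the replicate block (quasi-likelihood and likelihood-ratio), 0.0069 with the crossed block, 0.0026 with no filter, and -0.3748 to 0.4289 with a library left out. Ptgs2 in F2 was -0.0008 by library size only and -0.1581 to 0.1835 with a library left out, and Reln in F1 was -0.0177 to 0.2858 with a library left out.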
